A study of Homo sapiens with 4 samples.

Results

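Enzymes that add or remove methyl and acetyl groups on histone lysines were examined in NB4-R4 cells given the CHK1 inhibitor MK-8776, against the same cells given the vehicle DMSO. The genes were those with a single symbol on the array among the KDM, KMT2, KMT5, SETD, HDAC, sirtuin (SIRT) and KAT families, together with EZH1, EZH2, EED, SUZ12, DOT1L, EHMT1, EHMT2, SUV39H1, SUV39H2, CREBBP and EP300. They came to 68 of the 17687 genes measured, each with a single array feature. Of 73 enzyme symbols listed for the role classes below, EED, EP300, KDM1A, KDM4F and SETD1B were not analysed here. Both groups were the acute promyelocytic leukaemia subclone NB4-R4, which is resistant to all-trans retinoic acid. The MK-8776 group received 4 µM of the drug and the DMSO group received vehicle, both for 96 h, with 2 biological replicates and so 2 expression arrays in each group. The labels do not say how the cultures of a group were kept apart, so the spread behind each p-value may be technical. The subclone is a single cultured line, and RNA was taken from live cells, so cells lost during treatment were not measured.

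Histone methyltransferases ("writers") place methyl groups on particular lysines, and demethylases ("erasers") take them off. Methylation of H3K4 and H3K36 is found over active genes, that of H3K9 and H3K27 over silent ones. Acetyltransferases loosen chromatin by neutralising lysine charges, and histone deacetylases (HDACs) and sirtuins reverse this. In promyelocytic leukaemia the fusion protein PML-RARA holds target genes silent through co-repressor complexes that contain a histone deacetylase. These enzymes also act on many other proteins, and transcript levels do not measure their activity.

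Of the enzyme genes, SUV39H2, which encodes an H3K9 methyltransferase, was the single member that passed the test between MK-8776 and DMSO. It was 2.29-fold lower in MK-8776. Expression is given as RMA values on the log2 scale, and changes are MK-8776 minus DMSO with the standard error (SE) from limma. The threshold was an adjusted p of 0.05 over all 17687 genes. At this threshold 0 enzyme genes rose, 1 fell and 67 did not pass, so that 1.47% of the family was called, against 3.69% of all genes (1.66% upward and 2.02% downward). At an unadjusted p under 0.05 there were 15 enzyme genes, or 22.1%, against 18.8% of all genes. Of these, 5 were higher (7.35%, against 8.61% of all genes) and 10 were lower (14.7%, against 10.2%).

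Across the family 34 genes had a positive and 34 a negative change, with a median of -0.025 and quartiles of -0.279 and 0.221. Over all genes the median was 0.005 and the quartiles were -0.245 and 0.245. A change of 1 or more on the log2 scale in either direction, which is a 2-fold difference, was seen in 2 enzyme genes (2.94%), SUV39H2 and KAT2A, against 4.69% of all genes. Both MK-8776 arrays lay on 1 side of both DMSO arrays in 31 enzyme genes, or 45.6%, against 48.2% of all genes. In 13 of the 31 the MK-8776 arrays were the higher ones (19.1% of the family, against 24.0% of all genes), and in 18 they were the lower ones (26.5%, against 24.2%). The 95% confidence interval of the change had a median half-width of 0.536. It stayed within a 2-fold change either way for 48 enzyme genes and reached a 2-fold change for 20, so for these 20 genes the 4 arrays do not exclude a 2-fold difference. Of the 68 genes, 57 had a mean level above the median of all values (5.77), and KDM4E and HDAC11 lay under the lower quartile (3.97) in both groups. KDM5D lies on the Y chromosome and is counted here without its values.

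**Figure D1:**
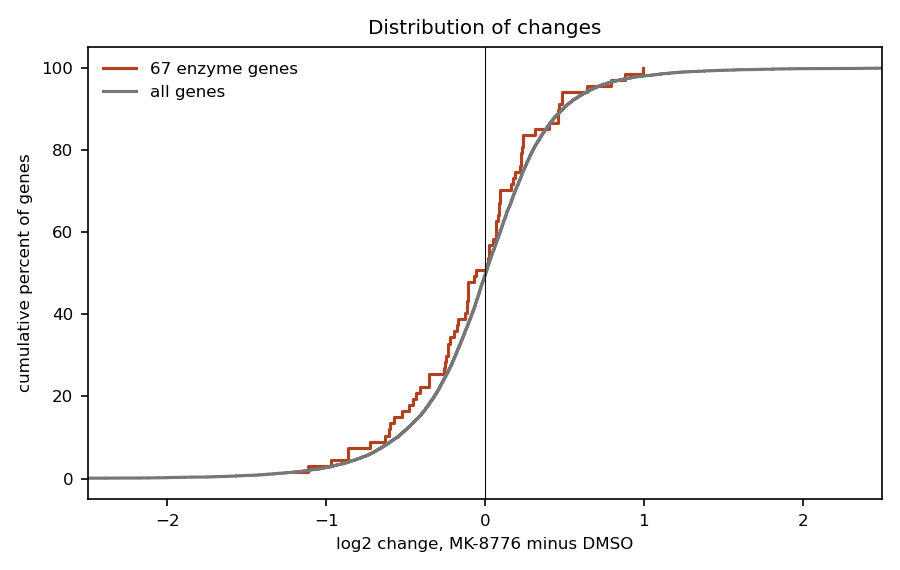
Cumulative percent of genes (vertical axis) by log2 change, MK-8776 minus DMSO (horizontal axis, cut at 2.5 either way), for 67 enzyme genes and for all genes. The enzyme curve runs close to that of all genes around 0 and ends at -1.195 for SUV39H2 and 0.995 for SETD2. Its ends cannot be compared with those of all genes, since 67 genes are few.

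The arrays were alike overall. Across all genes the correlation was 0.993 between the MK-8776 arrays and 0.993 between the DMSO arrays, and 0.981 to 0.989 between arrays of different groups. Most genes of S phase and mitosis moved with the groups: 16 of 33 fell, 17 did not pass and 0 rose, with a median change of -0.96. In sign 29 of the 33 were lower and 4 higher, with changes from -2.79 to 1.265. Their summed unlogged level was 31299.3 to 42092.2 in MK-8776 and 69914.9 to 71900.3 in DMSO. The identity of the cells was checked on 7 promyelocyte markers, of which MPO, the myeloperoxidase gene, measured 14.81 and 15.36 in MK-8776 and 16.09 and 16.27 in DMSO. In this list CTSG and PRTN3, both granule protease genes, fell, with changes of -2.20 and -2.005, and ANPEP, the surface aminopeptidase CD13, rose by 1.075. The other 4, AZU1 (-1.20), MPO (-1.095), CEBPE (-0.35) and CEBPA (-0.26), did not pass, and the median of the 7 was -1.095. Of 10 monocyte and macrophage markers CD86, C1QA and CD14 rose, by 1.78, 1.775 and 1.37, and 7 did not pass. In sign 6 of the 10 were higher and 4 lower, with a median of 0.165. The summed level of that list was 2362.3 to 2433.7 in MK-8776 and 1861.1 to 2119.8 in DMSO. CD86 and C1QA gave a large part of the MK-8776 sums, so the sums do not describe the list as a whole. FCGR3A, MRC1 and VCAN were below that quartile throughout. Among 9 lymphoid markers the call count was 1 up (NKG7, change 1.225) and 1 down (CD3E, change -1.38), and 6 of the 9 were lower, with a median of -0.08. Their sums, to which NKG7 gave a large part, were 6957.7 to 7319.5 in MK-8776 and 4580.6 to 5276.0 in DMSO, with CD3G, CD8A and MS4A1 under that quartile. Among 9 markers of erythroid cells and megakaryocytes it was also 1 up (PPBP, change 1.82) and 1 down (ITGA2B, change -1.55), and 6 of the 9 were higher, with a median of 0.235. Their sums, to which ITGA2B gave a large part, were 468.6 to 569.7 in MK-8776 and 744.0 to 861.5 in DMSO, with ALAS2 and GP9 under the quartile. The part of these shifts in the enzyme values below was not tested, and a change in the share of a cell state cannot be told apart from a change of RNA per cell.

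The 4 H3K9 methyltransferase genes of the family all had negative changes, with a median of -0.58. In each the MK-8776 arrays lay below the DMSO arrays, as they did in 24.2% of all genes. They are not the full set of such genes, since SETDB1 and SETDB2 lie outside the symbols chosen. SUV39H2 passed and the other 3 did not. SUV39H1 and SUV39H2 are paralogues that place the trimethyl mark of constitutive heterochromatin, and EHMT1 (GLP) and EHMT2 (G9a) form a dimer that places mono- and dimethyl marks in euchromatin. SUV39H2 (feature TC1000006859.hg.1, chromosome 10, 14878866 to 14904315, GRCh38) measured 5.77 and 5.83 in the MK-8776 arrays and 7.10 and 6.89 in the DMSO arrays. Both MK-8776 arrays were well below both DMSO arrays, with little spread inside either group, and the MK-8776 level was near the median of all values. It fell by 1.195 (SE 0.21, 95% interval -1.671 to -0.719, adjusted p = 0.0234, limma). The call was not kept in a test against a fold of 1.2 (adjusted p = 0.0545, limma). It was also not kept when any array was left out, where the changes lay between -1.30 and -1.09. Such fits have a single array in a group and keep few calls over all genes, so that loss is not particular to SUV39H2. EHMT2 measured 9.38 and 9.64 in MK-8776 and 9.98 and 10.49 in DMSO, without overlap, and its change of -0.725 (SE 0.245) did not pass (adjusted p = 0.157, limma). EHMT1 measured 8.61 and 8.58 in MK-8776 and 8.72 and 9.34 in DMSO, a change of -0.435, with the second DMSO array far above the other 3. SUV39H1 measured 10.44 and 10.40 in MK-8776 and 10.70 and 10.53 in DMSO, and its change was -0.195 with an interval from -0.665 to 0.275. The change of SUV39H2 was thus lower by 1.0 than that of its paralogue. An exact permutation test (two-sided) of this difference gave p = 0.333, the smallest that 2 arrays against 2 allow, and 0.333 after adjustment over 5 paralogue pairs.

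The promoters of SUV39H2, of its paralogue SUV39H1 and of SETD2, the enzyme gene with the largest positive change, are shown because SUV39H2 and SETD2 mark the ends of the family's range of changes and SUV39H1 is the paralogue of SUV39H2. They were chosen with their values known. Each sequence holds 250 bases before and 50 from the annotated start, 5′ to 3′ on the gene's strand (RefSeq, GRCh38.p14). The starts used for SUV39H2 and SUV39H1 are the first bases of their gene bounds. That of SETD2 lies inside its bounds, which end at 47164840, so the windows rest on unlike starts. Capitals mark matches, on either strand, to 5 short motifs. The motifs were TTTGAA, the cell cycle homology region (CHR) of many mitotic promoters, TTCCCGC (an E2F-type site), CCAAT (the CCAAT box), GGGCGG (the GC box) and CCGGAAG (an ETS-type site).
SUV39H2 promoter, chr10:14878616-14878915, plus strand: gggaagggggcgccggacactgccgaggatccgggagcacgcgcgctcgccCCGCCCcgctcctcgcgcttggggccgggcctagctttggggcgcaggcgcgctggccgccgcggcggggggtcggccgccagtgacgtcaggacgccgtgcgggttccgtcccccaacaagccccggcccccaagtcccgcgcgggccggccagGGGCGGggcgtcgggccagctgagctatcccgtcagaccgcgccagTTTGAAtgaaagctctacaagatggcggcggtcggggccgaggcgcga
SUV39H1 promoter, chrX:48695304-48695603, plus strand: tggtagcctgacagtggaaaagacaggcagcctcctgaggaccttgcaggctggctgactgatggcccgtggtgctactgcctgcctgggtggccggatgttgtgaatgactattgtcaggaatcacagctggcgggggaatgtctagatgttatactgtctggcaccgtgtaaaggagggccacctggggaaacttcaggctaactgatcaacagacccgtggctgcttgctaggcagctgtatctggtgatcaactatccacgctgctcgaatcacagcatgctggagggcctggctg
SETD2 promoter, chr3:47164064-47164363, minus strand: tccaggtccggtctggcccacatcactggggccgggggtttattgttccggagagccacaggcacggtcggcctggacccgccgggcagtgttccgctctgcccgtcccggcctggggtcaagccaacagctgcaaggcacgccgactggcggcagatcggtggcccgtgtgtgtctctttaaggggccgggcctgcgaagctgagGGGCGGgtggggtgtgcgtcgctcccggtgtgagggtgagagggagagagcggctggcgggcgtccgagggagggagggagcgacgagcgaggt

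The SUV39H2 window held a CHR match that began at base 3 counted from the start site as base 1, and GC boxes that began at -44 on the gene's strand and at -199 on the opposite strand. The SETD2 window held a GC box that began at -44, and the SUV39H1 window held no match to any of the 5 motifs. SUV39H2 had 44 CpG dinucleotides and 76.3% G and C, SETD2 had 28 and 70.3%, and SUV39H1 had 7 and 56.3%. The CHR letters occurred in 15.4% of all 27305 promoters, in 7 of the 62 enzyme promoters in the table (11.3%) and in 9 of 28 promoters of the S phase and mitosis list (32.1%). The other enzyme promoters with them were those of HDAC4, KAT7, KDM2A, KDM4D, SIRT4 and SUZ12, whose changes ran from -0.60 for HDAC4 to 0.23 for KDM2A, and none of these 6 passed. The E2F-type letters were in 8.06% of enzyme promoters, against 25% of the S phase and mitosis list and 6.56% of all. CCAAT was in 32.3% of enzyme promoters, against 78.6% of that list and 35.7% of all, the GC box in 71.0%, against 75% and 44.6%, and the ETS-type letters in 19.4%, against 14.3% and 10.7%. The enzyme promoters had a median of 29.0 CpG dinucleotides and 67.2% G and C, against 14 and 58.3% in all promoters. These matches describe letters and are not evidence of binding.

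**Figure D2:**
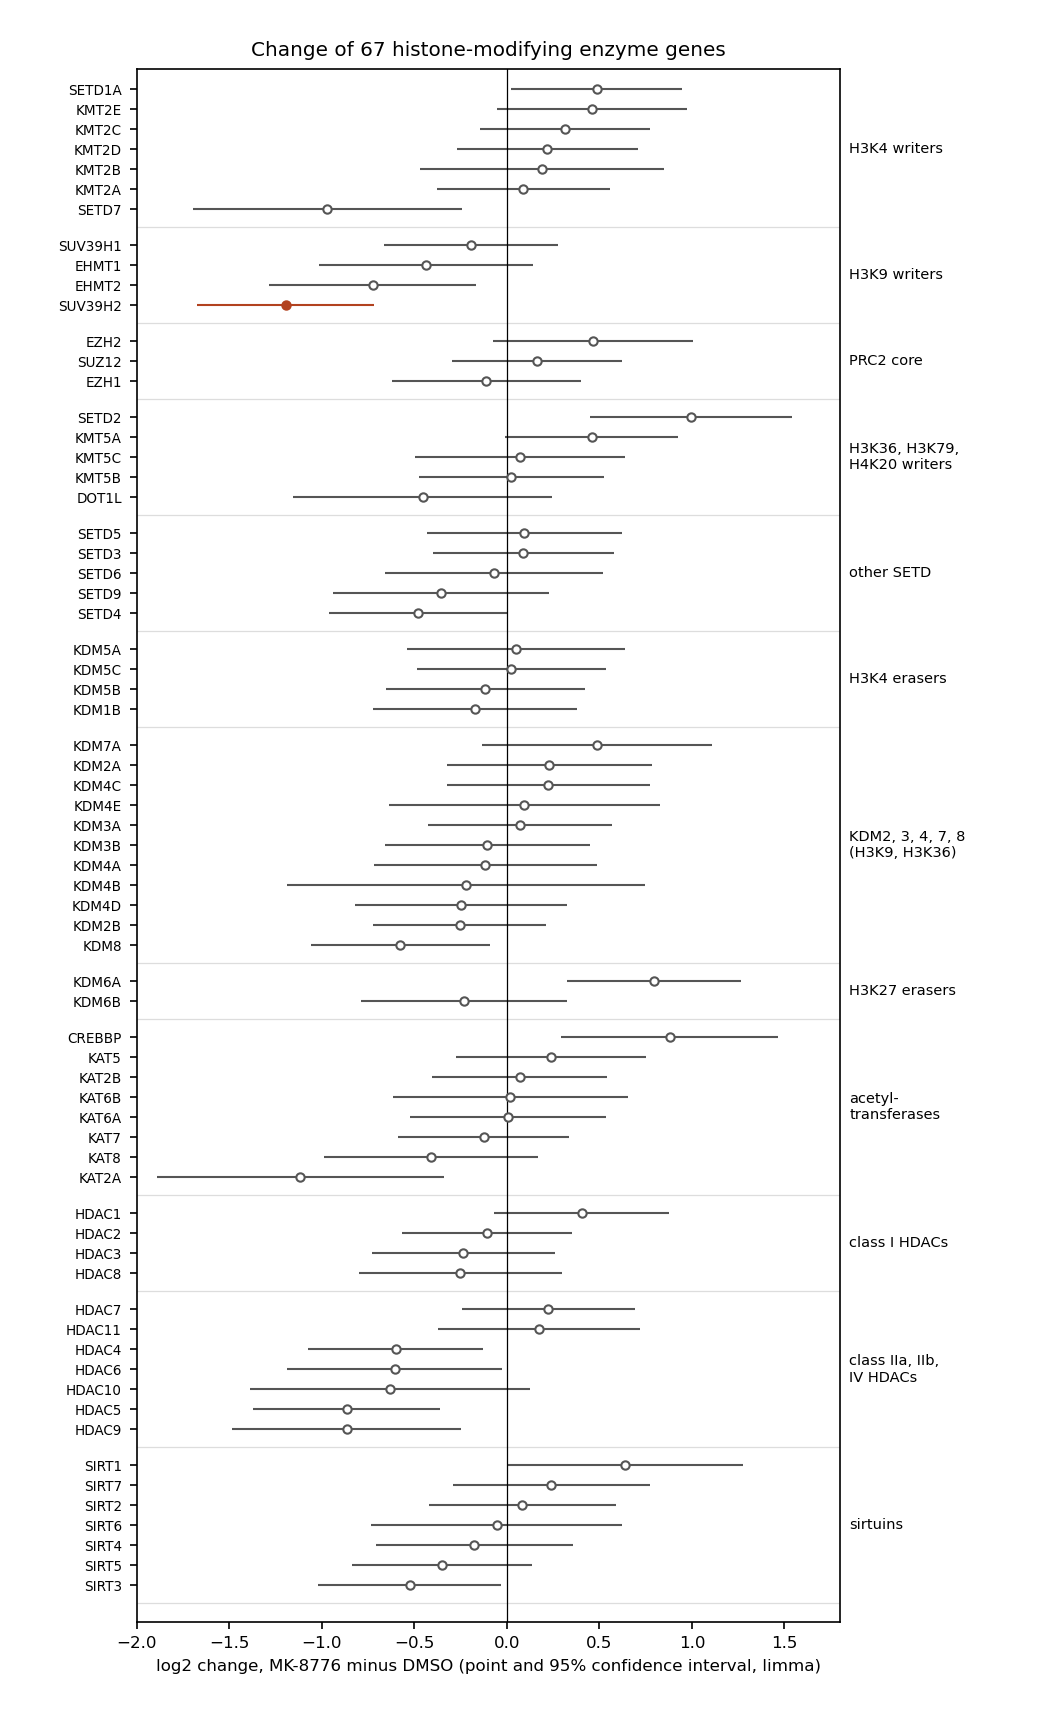
Log2 change, MK-8776 minus DMSO (horizontal axis), of 67 enzyme genes grouped by role, with points at the fitted change and bars for the 95% confidence interval from limma. The filled point is SUV39H2, the gene past the threshold, at -1.195. All 4 H3K9 writers of the family lie left of 0, and 6 of its 7 H3K4 writers lie right of it.

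Among H3K4 methyltransferases, 6 of 7 had a positive change, as had 8903 of all 17687 genes. Of the 7, 0 passed (2 at an unadjusted p under 0.05, against 18.8% of all genes). The genes KMT2A to KMT2D and SETD1A encode the catalytic subunits of MLL and COMPASS complexes, and KMT2E encodes a related protein whose own catalytic activity is doubtful. SETD1A, the gene of the enzyme responsible for much of the H3K4 trimethylation at promoters, measured 10.98 and 11.00 in MK-8776 and 10.49 and 10.52 in DMSO. The values inside each group were nearly equal, and the change of 0.485 (SE 0.20) still did not pass (adjusted p = 0.243, limma). SETD7, the gene of a monomethyltransferase with many non-histone targets, was the exception in sign. It measured 8.75 and 7.75 in MK-8776 and 9.21 and 9.23 in DMSO, which gives -0.97 (SE 0.32) with an adjusted p of 0.146 in limma. The MK-8776 arrays were far apart and the DMSO arrays nearly equal. The changes of the KMT2 genes ran from 0.09 for KMT2A to 0.46 for KMT2E. KMT2E measured 12.42 and 12.04 in MK-8776 and 11.70 and 11.84 in DMSO. KMT2C, at 12.79 and 12.83 in MK-8776 and 12.52 and 12.47 in DMSO, has near-identical duplicated segments elsewhere in the genome, so how much of its signal comes from the gene itself is uncertain.

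SETD2, which encodes the enzyme that places H3K36 trimethylation behind elongating RNA polymerase II, had the largest positive change of the family. SETD2 (feature TC0300010968.hg.1, chromosome 3, 47016436 to 47164840) measured 10.77 and 10.41 in MK-8776 and 9.78 and 9.41 in DMSO. Both MK-8776 arrays were above both DMSO arrays, and the change of 0.995 (SE 0.24, 95% interval 0.451 to 1.539) missed the threshold (adjusted p = 0.0626, limma). It passed with a variance trend (adjusted p = 0.0214), with a robust variance trend (0.0225) and among genes above the median level (0.0371). Each of these settings also gave more calls over all genes, so passing there is not particular to SETD2. KMT5A, which encodes the H4K20 monomethyltransferase of mitotic chromatin, measured 10.75 and 10.62 in MK-8776 and 10.25 and 10.20 in DMSO. Its change of 0.46 (adjusted p = 0.273, limma) did not pass and was opposite in sign to the median of the S phase and mitosis list. KMT5B and KMT5C, the genes of enzymes that extend H4K20 methylation, had changes of 0.025 and 0.07, with arrays of the groups overlapping. DOT1L, the H3K79 methyltransferase gene, measured 7.72 and 8.46 in MK-8776 and 8.26 and 8.83 in DMSO, a change of -0.455 with overlapping arrays.

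The measured core genes of Polycomb repressive complex PRC2, which methylates H3K27, did not pass. EZH2, the catalytic subunit gene that is usually high in dividing cells, measured 9.98 and 10.48 in MK-8776 and 9.77 and 9.76 in DMSO. Both MK-8776 arrays were the higher ones, with a change of 0.465 (SE 0.235, adjusted p = 0.342, limma) and an interval from -0.074 to 1.004. EZH1, its paralogue, measured 9.25 and 9.60 in MK-8776 and 9.45 and 9.62 in DMSO, a change of -0.11 with overlapping arrays. SUZ12, a subunit needed for the complex to form, measured 11.96 and 11.98 in MK-8776 and 11.81 and 11.80 in DMSO, a change of 0.165. SUZ12 has a closely related pseudogene, so how much of its signal comes from the gene is uncertain. Of the remaining SETD genes, SETD4 measured 7.24 and 7.18 in MK-8776 and 7.57 and 7.81 in DMSO (change -0.48, adjusted p = 0.266, limma). SETD9 was at -0.355, and SETD3, which encodes the actin histidine methyltransferase, SETD5 and SETD6 lay between -0.07 and 0.095.

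**Figure D3:**
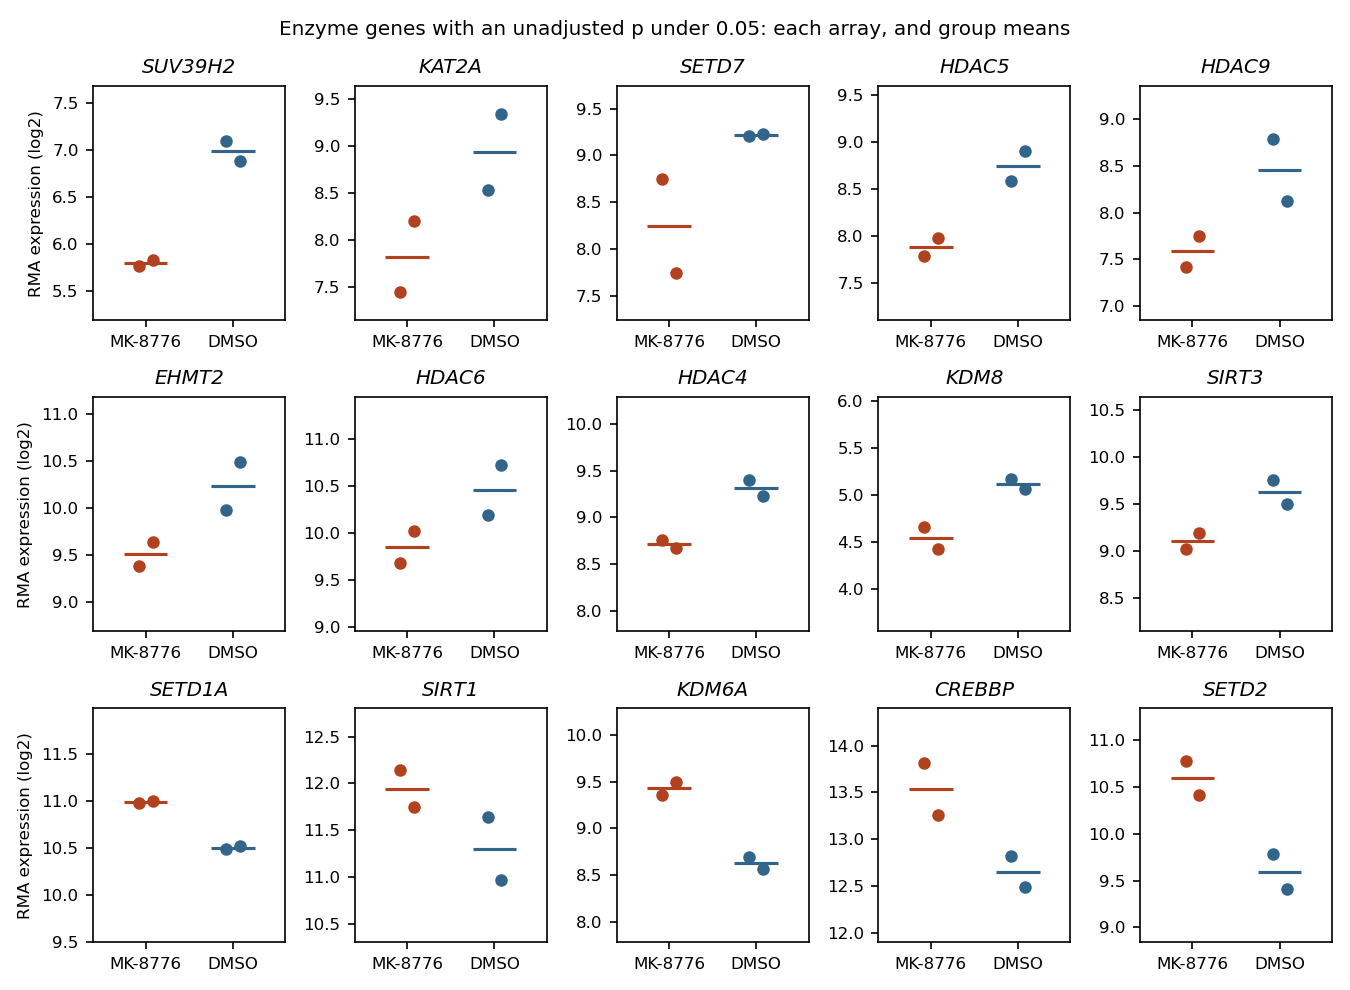
RMA expression on the log2 scale (vertical axis, each panel spanning 2.5 units) of the 15 enzyme genes with an unadjusted p under 0.05, ordered by change. Points are single arrays and lines are means of the 2 arrays of a group, with MK-8776 on the left and DMSO on the right. The arrays of the groups do not overlap in any of the 15, nor in 48.2% of all genes. The 15 were selected by p on these same arrays, so this adds no support. SUV39H2 is the gene that passed after adjustment.

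Of 18 demethylase genes 0 passed (2 at an unadjusted p under 0.05, against 18.8% of all genes). The arrays of the groups were free of overlap in 3 of the 18, against 48.2% of all genes, and overlapped in 15. KDM6A (UTX), the H3K27 demethylase gene of the MLL3 and MLL4 complexes, stood apart (feature TC0X00007075.hg.1, chromosome X, 44873188 to 45112779). It measured 9.36 and 9.50 in MK-8776 and 8.70 and 8.57 in DMSO, a change of 0.795 (SE 0.21, adjusted p = 0.0801, limma). The change passed among genes above the median level (adjusted p = 0.0434, limma), a filter that gave more calls over all genes as well. KDM6B (JMJD3), the other H3K27 demethylase gene, known to be induced by inflammatory stimuli in macrophages, measured 7.77 and 8.25 in MK-8776 and 8.38 and 8.10 in DMSO. Its arrays overlapped, its change was -0.23, and the change of KDM6A was higher by 1.025 (exact permutation p = 0.333, two-sided, the smallest possible). KDM8, which encodes a JmjC-domain protein, measured 4.66 and 4.42 in MK-8776 and 5.17 and 5.06 in DMSO, all under the median of all values, with a change of -0.575 (adjusted p = 0.188, limma).

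Of the H3K4 demethylase genes, 4 are given here. KDM1B (LSD2) measured 12.04 and 12.43 in MK-8776 and 12.59 and 12.22 in DMSO, and KDM5B measured 11.42 and 10.95 in MK-8776 and 11.22 and 11.38 in DMSO. Their changes were -0.17 and -0.115, and those of KDM5A and KDM5C were 0.05 and 0.025, with overlapping arrays in all of these. KDM7A, an H3K9 and H3K27 demethylase gene, measured 9.67 and 9.25 in MK-8776 and 9.28 and 8.67 in DMSO, a change of 0.485 (adjusted p = 0.392, limma). KDM2B, which encodes an H3K36 demethylase that brings a Polycomb complex to CpG islands, measured 10.79 and 10.67 in MK-8776 and 11.00 and 10.97 in DMSO. The groups did not overlap for KDM2B, but the change was small at -0.255. KDM2A, KDM3A, KDM3B and the 5 KDM4 genes measured lay between -0.245 for KDM4D and 0.23 for KDM2A. KDM4B had the widest interval of the family, from -1.186 to 0.746, since its DMSO arrays measured 6.03 and 7.54 on either side of its MK-8776 arrays at 6.57 and 6.56. KDM4D and KDM4E are close copies and both were dim.

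Of 8 acetyltransferase genes 0 passed (2 at an unadjusted p under 0.05, against 18.8% of all genes). This pair pointed in opposite directions. KAT2A (GCN5), the acetyltransferase gene of the SAGA and ATAC co-activator complexes (feature TC1700012415.hg.1, chromosome 17, 42113111 to 42121367), measured 7.44 and 8.20 in MK-8776 and 8.53 and 9.34 in DMSO. The groups did not overlap, but arrays inside each were well apart, and the change of -1.115 (SE 0.34) did not pass (adjusted p = 0.122, limma). KAT2B (PCAF), its paralogue, measured 8.11 and 8.12 in MK-8776 and 7.95 and 8.14 in DMSO, a change of 0.07. CREBBP, the gene of the co-activator CBP, which acetylates H3K27 at enhancers (chromosome 16, 3725054 to 3880713), measured 13.81 and 13.26 in MK-8776 and 12.82 and 12.49 in DMSO. Its change of 0.88 (SE 0.255, adjusted p = 0.108, limma) passed with a variance trend (0.0208) and with a robust one (0.023). These trends gave 1185 and 1162 calls over all genes, against 652 without a trend. The MYST acetyltransferase genes KAT5, KAT6A, KAT6B, KAT7 and KAT8 lay between -0.41 for KAT8 and 0.24 for KAT5. Among them only KAT7, at 10.05 and 10.02 in MK-8776 and 10.20 and 10.12 in DMSO, had groups without overlap.

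Of 11 HDAC genes 8 had a negative and 3 a positive change, where 8699 of all 17687 genes had a negative one. Of the 11, 0 passed and 4 were at an unadjusted p under 0.05, all lower, against 10.2% of all genes. These 4 belonged to class IIa, whose members shuttle between nucleus and cytoplasm and bind MEF2 factors, and class IIb. HDAC5 (class IIa, chromosome 17, 44076753 to 44123641) measured 7.79 and 7.98 in MK-8776 and 8.59 and 8.91 in DMSO. Its change was -0.865 (SE 0.22, adjusted p = 0.0762, limma), and it passed among genes above the median level (0.0434). That filter gave more calls over all genes as well. HDAC9 (class IIa) measured 7.42 and 7.75 in MK-8776 and 8.78 and 8.12 in DMSO, also a change of -0.865 (SE 0.27, adjusted p = 0.131, limma). HDAC4 (class IIa) measured 8.76 and 8.67 in MK-8776 and 9.40 and 9.23 in DMSO, a change of -0.60 (adjusted p = 0.162, limma). HDAC6, the class IIb gene of the cytoplasmic tubulin deacetylase, measured 9.68 and 10.02 in MK-8776 and 10.19 and 10.72 in DMSO, a change of -0.605 (adjusted p = 0.248, limma). In each of these 4 genes both MK-8776 arrays were below both DMSO arrays, as in 24.2% of all genes. The 4 were selected by p on these same arrays, so this adds no support. HDAC7, the remaining class IIa gene, did not share the sign: it measured 5.83 and 5.74 in MK-8776 and 5.50 and 5.62 in DMSO, a change of 0.225. HDAC10 (class IIb) measured 4.32 and 5.31 in MK-8776 and 5.24 and 5.65 in DMSO, and its change of -0.63 ran from -1.125 to -0.135 when an array was left out. HDAC11 at 0.175 was dim in both groups. The 7 genes of classes IIa, IIb and IV had a median change of -0.605, the lowest of the 12 role classes, and it was -0.574 after quantile normalization and -0.595 after median centring.

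The class I HDAC genes, which include those of the catalytic subunits of nuclear co-repressor complexes, had changes under 0.5 in size. HDAC1 measured 12.35 and 12.30 in MK-8776 and 12.02 and 11.82 in DMSO, a change of 0.405 (adjusted p = 0.346, limma) without overlap. HDAC2 measured 11.67 and 11.70 in MK-8776 and 11.80 and 11.78 in DMSO, a change of -0.105. HDAC3, a deacetylase of nuclear co-repressor complexes, measured 11.19 and 10.89 in MK-8776 and 11.23 and 11.32 in DMSO, a change of -0.235 with an interval from -0.728 to 0.258. HDAC8 measured 8.28 and 7.77 in MK-8776 and 8.34 and 8.21 in DMSO, and its change was -0.25. For all 4 genes of class I the interval excluded a 2-fold change in either direction.

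Sirtuins are deacetylases and deacylases that consume NAD. Of 7, 0 passed (2 at an unadjusted p under 0.05, against 18.8% of all genes), and those 2 differed in sign. SIRT1, the nuclear deacetylase gene, measured 12.14 and 11.75 in MK-8776 and 11.64 and 10.97 in DMSO, with a change of 0.64 (SE 0.28) and an adjusted p of 0.260 in limma. SIRT3, the gene of the main mitochondrial deacetylase, measured 9.02 and 9.19 in MK-8776 and 9.76 and 9.50 in DMSO, a change of -0.525 (SE 0.215, adjusted p = 0.237, limma). SIRT5, which encodes a mitochondrial desuccinylase, measured 9.0 in both MK-8776 arrays and 9.21 and 9.49 in DMSO, and its change of -0.35 did not pass. SIRT2, SIRT4, SIRT6 and SIRT7 lay between -0.175 and 0.24, with overlapping arrays.

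Transcripts of proteins that work with these enzymes, and of further histone-modifying enzymes, were examined in lists of 8 to 31 genes. They are called partner lists here, with 1 call or none in each. The share called over all genes was 3.69%. Of 12 COMPASS and MLL partner genes 0 passed (3 at an unadjusted p under 0.05, against 18.8% of all genes). The largest changes were 0.77 for NCOA6, a subunit of the MLL3 and MLL4 complexes, and 0.635 for HCFC1. The shared core subunit genes are in this list, whose median change was -0.11. Of 8 PRC2 accessory genes PHF19, which encodes a Polycomb-like protein that binds methylated H3K36, fell and 7 did not pass. It measured 6.94 and 6.80 in MK-8776 and 7.79 and 8.13 in DMSO, a change of -1.09 (SE 0.22, adjusted p = 0.036, limma), and the list's median was -0.038. Of 27 genes of HDAC co-repressor complexes 0 passed (7 at an unadjusted p under 0.05, against 18.8% of all genes). RCOR2 was at -1.055 and ARID4B at 0.81. Positive changes were seen in 19 of the 27, against 8903 of all 17687 genes, and the list's median was 0.20.

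Of 31 genes of acetyltransferase complexes BRPF3, the scaffold gene of a KAT7 complex, rose and 30 did not pass. It measured 8.36 and 8.31 in MK-8776 and 7.26 and 7.05 in DMSO, a change of 1.18 (SE 0.21, adjusted p = 0.0245, limma), and the list's median was 0. Of 30 further enzyme genes, mostly of histone methyltransferases and demethylases, SMYD5, the gene of a SET and MYND domain protein, fell and 29 did not pass. It measured 7.09 and 6.92 in MK-8776 and 8.17 and 8.32 in DMSO, a change of -1.24 (SE 0.21, adjusted p = 0.0204, limma), and the median of that list was -0.218. Of 24 reader genes MLLT3, which encodes AF9, a YEATS-domain reader of acetylated histone that recruits DOT1L, fell and 23 did not pass. MLLT3 measured 8.84 and 9.25 in MK-8776 and 10.29 and 10.59 in DMSO, a change of -1.395 (SE 0.24, adjusted p = 0.0213, limma), and the readers' median was -0.13. Over these 6 partner lists 1 gene or none passed in each, whereas in the S phase and mitosis list CDT1, KIF20A, CCNB2 and PLK1 led the 16 falls, with changes of -2.79, -2.745, -2.0 and -1.925. The calls in the partner lists, like that of SUV39H2, were absent when any of the 4 arrays was left out, as were most in the S phase and mitosis list. Such fits have a single array in a group and keep few calls over all genes, so that loss is not particular to these lists. The calls of PHF19 and BRPF3 were also lost in a test against a fold of 1.2.

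**Figure D4:**
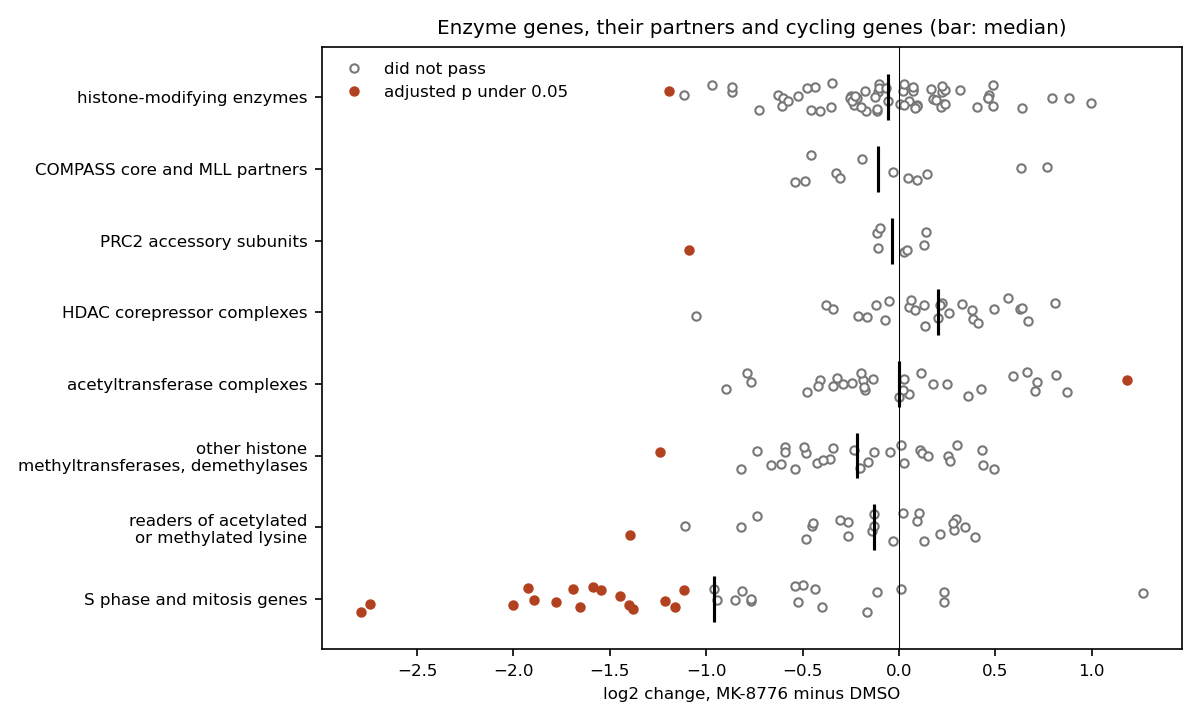
Log2 change, MK-8776 minus DMSO (horizontal axis), of each gene of the enzyme family, of the 6 partner lists and of the S phase and mitosis list. Filled points passed an adjusted p of 0.05 in limma, open points did not, and black bars are medians. The partner lists have 1 filled point or none each, and the S phase and mitosis list has 16, all left of 0.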

How the data were processed

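The deposited values are log2 expression per array feature, made by the authors with RMA (background correction, normalization between arrays, probe summary) on build hg38, per the submitters' processing notes. The log2 scale was taken from the values (2.16 to 18.54). RMA makes arrays alike in distribution, so changes are relative to other genes. No detection calls, scan dates or batches are given in the sources used here, and the number of arrays limits the precision.

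Of 21448 features, 17709 had exactly 1 symbol in the platform annotation, all found in the RefSeq gene table (GRCh38.p14). For 20 genes with several features the highest mean was kept, leaving 17687 genes. MK-8776 was compared with DMSO by limma 3.58.1 in R 4.3.3 (lmFit, eBayes, two-sided, no filter), with Benjamini-Hochberg adjustment over the 17687 genes. The code was tested on simulated data. The enzyme genes and lists were chosen with earlier results of these data known, so lists are described by counts and medians. Values are given for enzyme genes past the threshold or at an unadjusted p under 0.05, for the 2 largest changes per role class above the median level, for up to 4 called genes per list (2 where none passed), and for others chosen after their values were seen. Alternatives were quantile normalization, median centring, leaving out each array, eBayes with a variance trend (plain or robust), a test against a fold of 1.2, a replicate block, all features in the fit, and a filter for genes over the median level.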

Additional observations from a re-analysis of the deposited data

How the results depend on the processing

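SUV39H2 kept its sign under all 12 alternatives and its call under 6 of them. The call was lost with a replicate block (adjusted p = 0.0584), against a fold of 1.2 (0.0545) and without any array. The labels do not tie equal replicate numbers to a shared culture, and deviations of equal-numbered arrays correlated at 0.139 over all genes and 0.232 over the enzyme genes. The block left 309 of 652 calls over all genes, 0 of 1 among the enzymes, 10 of 16 in the S phase and mitosis list, 1 of 3 monocyte markers, 0 of 2 lymphoid and 1 of 2 erythroid markers. It left 0 for PRC2 accessory genes, acetyltransferase complexes and the list of further enzyme genes. Against a fold of 1.2 there were 288 calls over all genes, 0 among the enzymes, 10 in the S phase and mitosis list and 0 among PRC2 accessory genes, acetyltransferase complexes and lymphoid markers. A variance trend gave 1185 calls (robust 1162). With either trend 3 enzymes, 5 acetyltransferase complex genes, 3 readers and 1 gene each of the COMPASS and co-repressor lists passed. Above the median level 4 enzymes, 4 acetyltransferase complex genes, 2 readers and 1 erythroid marker passed. This filter also gave more calls over all genes than the 652 without it, so its added calls are not particular to these lists. Leaving out an array gave 0 to 34 calls over all genes, 0 enzymes, 0 to 2 S phase and mitosis genes, and 0 in each other list with calls. The causes were not tested, but a fit on 3 arrays has fewer samples. Of 67 enzyme genes with values, 26 took either sign over the alternatives, none of them with a call, including HDAC8, KDM1B, KDM5B and KDM6B. The counts of positive and negative changes in each role class were the same after quantile normalization and median centring. No enzyme gene had a further feature, so that alternative was not run.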
